A study of Mus musculus with 22 samples.

Results

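Transcript levels of 39 mouse genes of cholesterol synthesis and lipid uptake were examined in CD4+ T cells recovered from scurfy mice, which lack functional Foxp3, after cell therapy. The genes were taken by symbol from the 55011 genes in the count table: 5 of the sterol-sensing system, 8 of the mevalonate and isoprenoid pathway, 11 that lead from squalene to cholesterol, 6 of sterol transport, storage, export and oxysterol sensing, 8 of fatty acid synthesis, and Cd36 for uptake. All 39 were found, and 37 passed the filter on low counts that left 15462 genes in the test. Fads2, a fatty acid desaturase with 17 counts in all, and Cd36, with 32, did not pass it.

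The cells fell into 3 groups, each of C57BL/6 background and sorted from lymph nodes. The FOXP3 group held scurfy CD4+ T cells engineered with human FOXP3, with 5 sample codes (F1, F2, F5, N2 and N3). The WT Treg group held transferred CD4+CD25+ cells that carried CD45.1, with 3 codes (E2, G4 and L1). The LNGFR group held scurfy CD4+ T cells given the empty vector, which encodes only the LNGFR surface marker, with 3 codes (G1, G2 and G3). The labels name the first 2 groups Treg cells and the LNGFR group Tconv cells, and they give the scurfy knockout genotype for all 3, WT Treg included. Recipients in all groups were scurfy mice that had cyclophosphamide (50 mg/kg) at 10 days of age, cells into the peritoneum on day 14, and then human IL-2 (1000 IU/g, each day for 5 days and weekly thereafter). On day 50, lots of 1000 cells were sorted in 2 rounds on CD45.1 or LNGFR and sequenced, so each group is a population that persisted in a treated scurfy host. Each code had 2 libraries, which were summed and counted as 1 replicate. Nothing in the labels ties a code to 1 mouse, and the p-values therefore reflect only how far codes spread, which may be technical.

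Cells make cholesterol from acetyl-CoA through mevalonate and squalene. When sterols in the endoplasmic reticulum run low, SCAP carries the SREBP proteins to the Golgi, where proteases release the part that enters the nucleus and switches on the genes of synthesis and uptake, and INSIG proteins hold SCAP back when sterols are plentiful. Oxysterols made from surplus cholesterol activate the liver X receptors, which switch on export pumps. In T cells this programme is turned on when cells are activated and divide, and products of the mevalonate pathway are known to be needed for regulatory T cell function.

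Depth ranged between 1154626 counts in code E2 and 10376164 in code F2, and the 39 genes held between 871 counts in E2 and 25339 in F2. E2 stood apart: 58.7% and 49.9% of the counts in its libraries fell on the Gm10800 family of repeat-like transcripts, as did 29.1% in 1 library of G1, against 2.2% to 4.5% in the others. The paired libraries of E2 and of G1 correlated across the 39 genes at r = 0.777 and 0.258, against 0.966 to 0.989 for the other 9 codes. N3 stood apart in its markers: the 10 dendritic cell and antigen presentation genes summed to 10697 CPM (counts per 1000000, with libraries scaled by the trimmed mean of M values) in N3 and to 715 to 1345 in the other FOXP3 codes, and the 12 B cell genes summed to 9736 in N3 and to 1169.8 to 2370.2 in those. Among LNGFR codes G1 was the highest in both sums, with 4022 CPM of the dendritic list and 2196 of the B cell list. G2 had 1067 and 1139 CPM, and G3 had 1166 and 1080.3. No gene of either list was at 0 in every code. The T cell gene Cd3e was present in every code, between 307 CPM in E2 and 801 in G4. The 11 T cell genes summed to 4443 CPM in N3 and to 6396 to 7258 in the other FOXP3 codes. Their sum was 2947 CPM in E2, 7532 in G4 and 6901 in L1, and 8942 in G1, 6628 in G2 and 6578 in G3. Mouse Foxp3 had 162 to 313 CPM in FOXP3 codes, 704 to 1630.1 in WT Treg codes and 42.7 to 143 in LNGFR codes. The human transgene was not analysed here.

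The mean level per kilobase of exon spanned 3 orders of magnitude among the 39 genes. In FOXP3 cells the highest were Ebp, a sterol isomerase, at 65.8 CPM per kb, and Acly, which makes cytosolic acetyl-CoA, at 48.7 CPM per kb. Nr1h2, the broadly expressed liver X receptor, had 34.8 and the sterol exporter Abcg1 had 30.3 CPM per kb. Cd36 and Fads2 were the lowest, at 0.0426 and 0.0587 CPM per kb. The heat map of the tested members shows how codes E2, G1 and N3 depart from the rest of their groups.

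**Figure D1:**
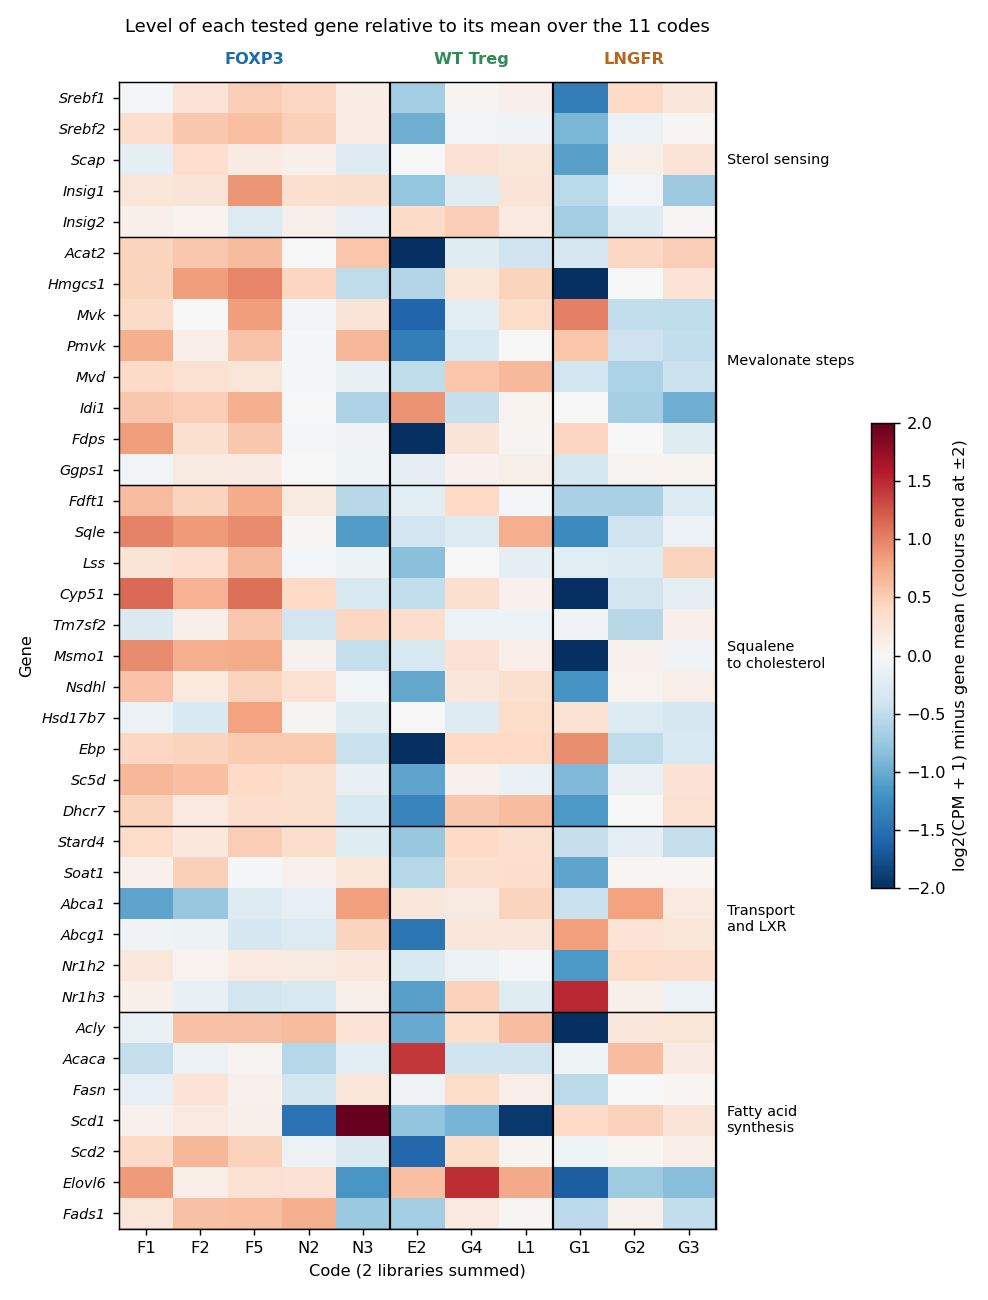
Level of each of the 37 tested genes (down the page, by role) in each of the 11 codes (across, grouped as FOXP3, WT Treg and LNGFR), as log2(CPM + 1) minus the gene's mean over codes, with colours ending at 2 either side of 0. E2 and G1 are low for many synthesis genes, and N3 differs from the other FOXP3 codes, with Scd1 at 271 CPM.

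The promoters of the members were compared because SREBP target genes share short elements near their start sites. Of the 39 genes, 31 had an entry in the RefSeq promoter table (GRCm38.p6), with 40 start sites in all, each given as 300 bases (250 before and 50 after the start). The sterol element TCACNCCAC, read on both strands, was present in 408 of 32851 promoters of the table (1.24%) and in 1 member, the HMG-CoA synthase gene Hmgcs1. The NF-Y box CCAAT was present in 37.4% of all promoters and in 24 of the 40 member promoters (60.0%). The GC box GGGCGG was present in 35.7% of all and in 28 of the 40 (70.0%). These are matches of letters, and no binding was measured. No member passed the test below with all codes. Mvd and Elovl6 passed in WT Treg against LNGFR cells once E2 was left out. Cyp51 and Insig1 had small unadjusted p-values between FOXP3 and LNGFR cells. Both passed with limma and sample quality weights, and Cyp51 but not Insig1 passed without E2, G1 and N3. The promoters below belong to these genes and to Hmgcs1. Each is printed 5′ to 3′ on the strand of the gene, with matches to the sterol element and to the NF-Y box, on either strand, in capitals. Hmgcs1 lies at chr13:119690101-119690400 (plus strand), Mvd at chr8:122443373-122443672 (minus), Cyp51 at chr5:4104648-4104947 (minus), Insig1 at chr5:28071162-28071461 (plus) and Elovl6 at chr3:129532136-129532435 (plus).
Hmgcs1: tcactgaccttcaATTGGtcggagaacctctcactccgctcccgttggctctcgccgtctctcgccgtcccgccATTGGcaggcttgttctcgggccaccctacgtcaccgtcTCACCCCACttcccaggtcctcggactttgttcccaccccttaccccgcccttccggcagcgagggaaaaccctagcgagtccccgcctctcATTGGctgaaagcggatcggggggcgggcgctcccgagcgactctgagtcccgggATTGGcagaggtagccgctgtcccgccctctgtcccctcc
Mvd: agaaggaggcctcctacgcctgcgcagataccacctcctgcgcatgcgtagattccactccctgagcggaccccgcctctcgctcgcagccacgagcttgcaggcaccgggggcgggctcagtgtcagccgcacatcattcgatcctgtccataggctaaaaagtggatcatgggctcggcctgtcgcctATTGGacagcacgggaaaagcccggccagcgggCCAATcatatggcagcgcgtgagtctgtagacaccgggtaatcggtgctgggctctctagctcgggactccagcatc
Cyp51: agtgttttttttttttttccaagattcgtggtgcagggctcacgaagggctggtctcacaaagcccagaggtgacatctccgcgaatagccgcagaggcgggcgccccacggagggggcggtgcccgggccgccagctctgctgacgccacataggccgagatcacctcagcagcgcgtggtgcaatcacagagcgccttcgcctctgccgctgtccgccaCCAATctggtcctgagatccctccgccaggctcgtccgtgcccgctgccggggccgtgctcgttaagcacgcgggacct
Insig1: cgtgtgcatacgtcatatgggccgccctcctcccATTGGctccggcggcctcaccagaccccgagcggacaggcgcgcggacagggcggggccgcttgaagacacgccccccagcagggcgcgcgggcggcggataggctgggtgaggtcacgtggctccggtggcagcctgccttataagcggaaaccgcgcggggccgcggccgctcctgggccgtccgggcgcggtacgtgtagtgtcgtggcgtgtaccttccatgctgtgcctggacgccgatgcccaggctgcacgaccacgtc
Elovl6: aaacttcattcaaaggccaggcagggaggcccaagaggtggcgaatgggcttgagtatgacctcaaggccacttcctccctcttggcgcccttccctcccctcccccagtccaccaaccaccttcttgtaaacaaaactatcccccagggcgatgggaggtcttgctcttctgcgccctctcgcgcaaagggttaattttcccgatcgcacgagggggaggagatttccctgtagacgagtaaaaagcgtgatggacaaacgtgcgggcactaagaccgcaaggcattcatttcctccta
Hmgcs1 held 4 NF-Y boxes and the sterol element, Mvd held 2 NF-Y boxes, Cyp51 and Insig1 held 1 each, and these letters were not in the Elovl6 window.

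In FOXP3 against LNGFR cells, which differ in whether the vector carried FOXP3, all 24 genes of sensing, mevalonate and sterol synthesis had a fold change above 0, with a median log2 fold change of 0.44, but no member passed the test. The fold changes ranged between 0.11 for Ggps1 and 1.41 for Cyp51. Over all 37 tested members the median was 0.38 and 33 were above 0, against a median of -0.02 and 48.9% above 0 over all 15462 genes. With edgeR's quasi-likelihood test and Benjamini-Hochberg adjustment over all genes, 0 of 37 members had an adjusted p under 0.05, where 0.543% of all tested genes did. At an unadjusted p under 0.05, 8 members were higher in FOXP3 cells (21.6%, against 4.81% of all genes) and 0 were lower (against 5.5%). The 8 were Cyp51, Elovl6, Fdft1, Insig1, Mvd, Sqle, Srebf2 and Stard4. DESeq2 called 0 members (2.65% of all genes), and limma with sample quality weights called 6 higher (16.2%, against 3.38% of all genes): Cyp51, Fdft1, Insig1, Mvd, Pmvk and Stard4. In bulk samples, fewer cells of a type and less RNA per cell cannot be told apart.

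E2 is a WT Treg code and enters this comparison only through the scaling, the filter and the shared estimate of spread. Without it, edgeR called 0 members, where 1.53% of all genes were, and 24 of the 24 genes of sensing and synthesis again lay above 0, with a median of 0.46. Leaving out E2, G1 and N3 together, the codes that stood apart, 10 members rose (27.0%, against 6.61% of all genes) and 2 fell (5.41%, against 4.04%). Those that rose were Cyp51, Ebp, Elovl6, Fads1, Fdft1, Idi1, Mvd, Pmvk, Srebf2 and Stard4, and those that fell were the exporters Abca1 and Abcg1. Without E2 and G1 alone edgeR called 0 members, where 124 of 15054 genes were higher and 196 lower. The smallest adjusted p among members was then 0.0805 (Pmvk). Without N3 alone edgeR called only Elovl6 (adjusted p = 0.0413). Neither step alone gave the other calls in edgeR, and N3 is low in the synthesis genes within the FOXP3 group. Of the 24 genes of sensing and synthesis, 21 lay above 0 without E2, G1 and N3, 20 without E2 and G1, 21 without G1 and 22 without F5. In the fit without E2, G1 and N3, genes of other kinds moved too: all 25 cell-cycle genes rose, 3 of 5 tested plasma cell genes fell and 2 of 6 tested myeloid genes rose. The 7 plasma cell genes summed to 326 to 401 CPM in F1, F2, F5 and N2, against 564 and 751 CPM in G2 and G3, and the 16 myeloid genes to 16.2 to 25.1 CPM, with G2 just below the lowest of these and G3 at 8.75 CPM. The part of these genes' cells in the members' values was not tested.

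In WT Treg against LNGFR cells, which sets natural regulatory cells against cells with the empty vector, Elovl6 and Mvd rose when E2 was left out, and neither passed with all 11 codes. With all codes 0 of 37 members passed, where 1.3% of all genes did, and the adjusted p of Elovl6 was 0.05004. Without E2, 2 of 37 rose (5.41%), where 0.915% of all genes did. Without E2 and the G1 library rich in the Gm10800 family, neither passed (edgeR adjusted p = 0.1355 for Elovl6 and 0.103 for Mvd). At an unadjusted p under 0.05 with all codes, Elovl6, Insig2 and Mvd were higher in WT Treg cells (8.11%, against 8.16% of all genes) and Acat2 was lower (2.7%, against 6.66%), which is no more than the background. DESeq2 called Elovl6 and Mvd higher (against 2.6% of all genes), as did limma with quality weights (against 2.88%). Without E2, G1 and N3, Ebp, Elovl6, Mvd and Stard4 rose (10.8%, against 4.19% of all genes) and 0 members fell (against 3.47%). The median over the members was 0.20 with all codes and 0.24 without E2, against 0.08 and 0.01 over all genes. The sum of the 12 B cell genes was 1678, 3825 and 3229 CPM in WT Treg codes and 2196, 1139 and 1080.3 CPM in LNGFR codes. That sum follows Ighm, the 1 gene of the list that rose, while the median of the 12 fold changes was -1.99 with 2 above 0. The part of B cells in these values was not tested.

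In FOXP3 against WT Treg cells, which asks how far engineered cells match natural ones, 0 of 37 members passed the test with all codes (0.259% of all genes did) and 0 without E2 (0.411% did). At an unadjusted p under 0.05 with all codes, Acat2, Pmvk, Scd1 and Srebf2 were higher in FOXP3 cells (10.8%, against 4.38% of all genes) and 0 were lower (against 12.1%). DESeq2 called Acat2 higher (2.7%, against 1.39% of all genes), and limma with quality weights called Acat2 and Srebf2 higher (5.41%, against 2.28%). Without E2, G1 and N3, Acat2 and Srebf2 rose (5.41%, against 3.85% of all genes) and Abcg1 fell (2.7%, against 3.57%), shares near the background. The 24 genes of sensing and synthesis had a median of 0.39 with 20 above 0, and without E2 a median of 0.22 with 18 above 0. These 3 comparisons share groups, so their fold changes are not independent of each other.

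The overlap of single codes between groups was counted without a model. FOXP3 codes were all above LNGFR codes for Srebf2, Insig1 and Mvd (8.11% of members, against 4.35% of all genes) and all below for 0 members (against 4.67%). WT Treg codes were all above LNGFR codes for Insig2, Fdft1 and Elovl6 (against 7.8% of all genes) and all below for Abcg1 and Scd1 (against 8.82%). Without E2, 13 members lay above (35.1%, against 17.1% of all genes) and 3 below (8.11%, against 14.5%). FOXP3 codes were all above WT Treg codes for Srebf2, Acat2 and Nr1h2 (against 6.12% of all genes) and all below for Insig2 (against 6.25%). Without E2 the same 3 lay above (8.11%, against 9.02% of all genes), and Insig2, Mvd and Dhcr7 lay below (8.11%, against 11.8%).

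**Figure D2:**
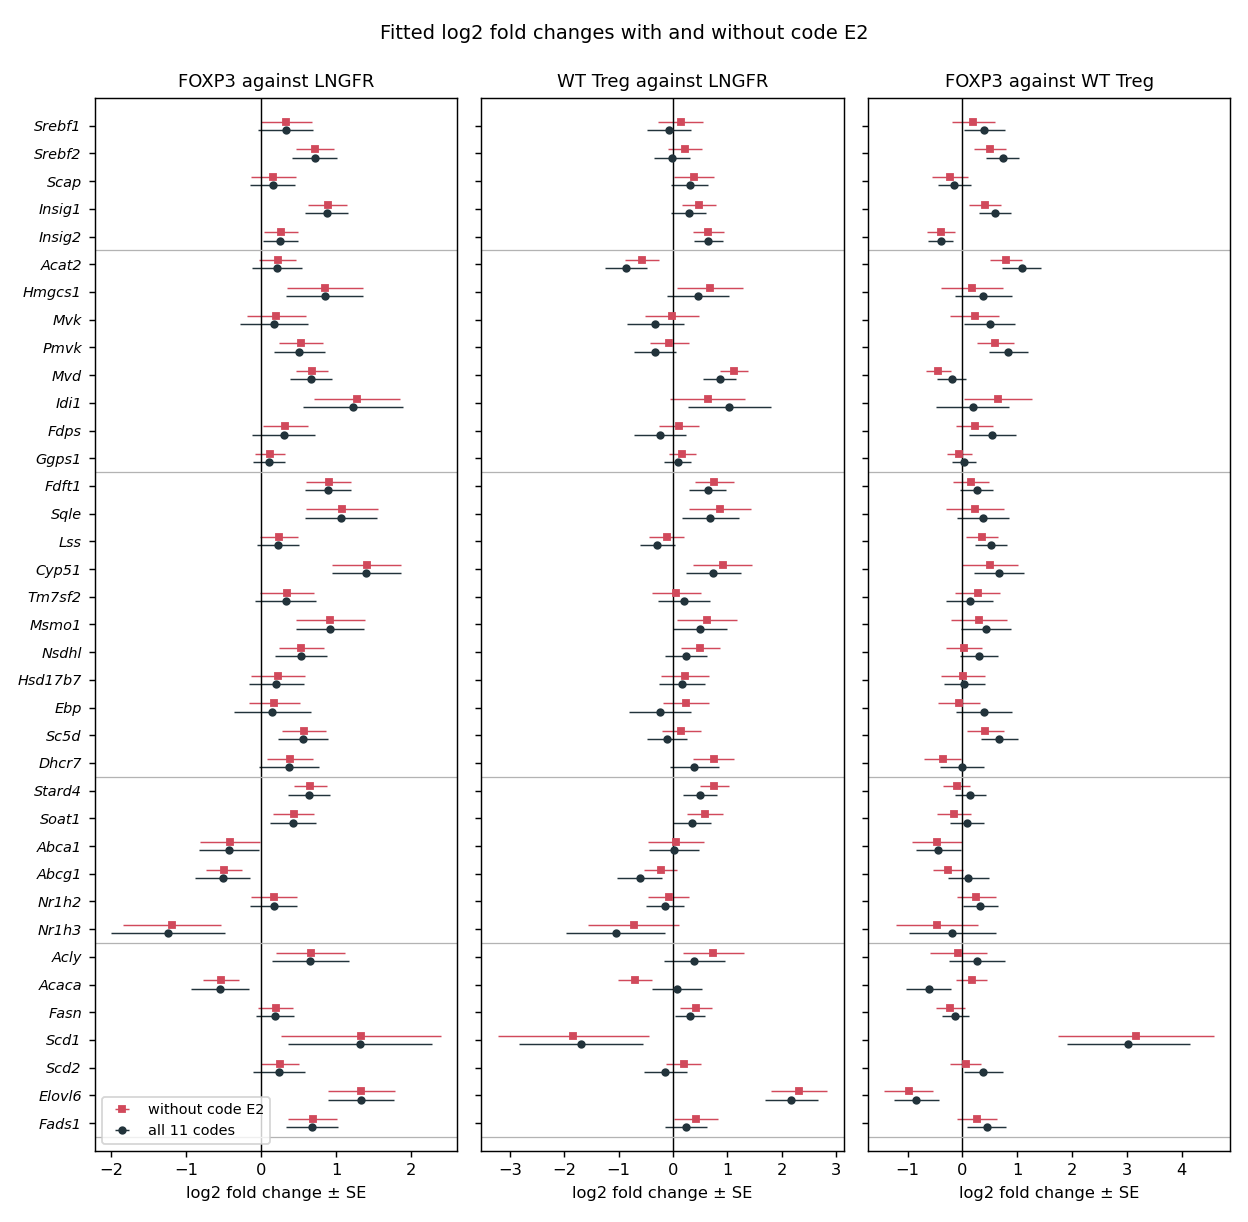
Log2 fold change with standard error of each tested member in the 3 comparisons (across panels, with and without code E2), members grouped by role down the page. In FOXP3 against LNGFR cells the sensing, mevalonate and sterol members all lie above 0, and in WT Treg against LNGFR cells Elovl6 is the highest, at 2.18 with all codes.

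In the sterol-sensing system, Srebf2, which encodes the SREBP that drives cholesterol synthesis, had 149.9, 170.5, 178, 165 and 131 CPM in FOXP3 codes, 59.2, 113 and 111 CPM in WT Treg codes, and 62.2, 108 and 119.9 CPM in LNGFR codes. Every FOXP3 code was above every code of the other groups. The log2 fold change was 0.71 ± 0.30 (SE) against LNGFR cells (edgeR adjusted p = 0.433) and 0.73 ± 0.30 against WT Treg cells (adjusted p = 0.240). Without E2, the mean of WT Treg codes was 112 CPM and the fold change against them was 0.50 ± 0.29 (adjusted p = 0.736).

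Insig1, an anchor of SCAP and itself an SREBP target, had 35.7, 36.0, 55.9, 37.7 and 38.5 CPM in FOXP3 codes, 17.1, 25.2 and 36.1 CPM in WT Treg codes, and 20.2, 28.6 and 17.7 CPM in LNGFR codes. All FOXP3 codes were above all LNGFR codes, F5 was the highest, and the WT Treg code L1 reached into the FOXP3 range. The log2 fold change of FOXP3 against LNGFR cells was 0.88 ± 0.29 (adjusted p = 0.243) and without E2 0.89 ± 0.26 (adjusted p = 0.123). The related Insig2, which is not an SREBP target, had 29.2, 28.6, 22.2, 29.2 and 24.2 CPM in FOXP3 codes, 35.5, 38.7 and 31.2 CPM in WT Treg codes, and 16.5, 22.4 and 27.7 CPM in LNGFR codes. WT Treg codes were above all others, E2 included, with a log2 fold change of 0.65 ± 0.26 against LNGFR cells (adjusted p = 0.279) and of -0.39 for FOXP3 against WT Treg cells.

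Srebf1, whose SREBP products act mainly on fatty acid genes, had 120.0, 149.7, 175, 166 and 138 CPM in FOXP3 codes, 76.3, 128 and 133 CPM in WT Treg codes, and 47.1, 164 and 145 CPM in LNGFR codes. The groups overlapped, and the lowest values were those of G1 and E2. Its log2 fold change of FOXP3 against LNGFR cells was 0.33 ± 0.37, and without E2, G1 and N3 it was -0.02 ± 0.15. Scap, the SREBP escort, had 47.1 to 72.2 CPM in FOXP3 codes, 56.6 to 69.5 in WT Treg codes and 26.2 to 68.9 in LNGFR codes.

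In the mevalonate pathway, Mvd, the decarboxylase that makes isopentenyl diphosphate (ENSMUSG00000006517.5, chr8:122433601-122443422, minus strand, GRCm38), had 47.1, 44.8, 42.8, 34.8 and 32.4 CPM in FOXP3 codes, 25.0, 53.2 and 56.6 CPM in WT Treg codes, and 27.2, 22.9 and 26.3 CPM in LNGFR codes. FOXP3 codes were all above LNGFR codes, and so were G4 and L1, while E2 lay within the LNGFR range. WT Treg against LNGFR cells gave 0.86 ± 0.30 with all codes (adjusted p = 0.228) and Mvd rose by 1.12 ± 0.25 without E2 (adjusted p = 0.0422). That call rests on G4 and L1 against 3 codes: with 1 more code left out, the adjusted p ranged from 0.0137 without G1 to 0.399 without L1. FOXP3 against LNGFR cells gave 0.67 ± 0.27 (adjusted p = 0.413), and FOXP3 against WT Treg cells gave -0.44 ± 0.23 without E2 (adjusted p = 0.668).

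Acat2, which joins acetyl-CoA units at the entrance to the pathway, had 35.9, 38.3, 41.2, 26.0 and 38.9 CPM in FOXP3 codes, 5.26, 22.0 and 19.6 CPM in WT Treg codes, and 20.5, 35.2 and 36.9 CPM in LNGFR codes. Every FOXP3 code was above every WT Treg code, with E2 the lowest of all. FOXP3 against WT Treg cells gave 1.08 ± 0.35 with all codes (adjusted p = 0.133) and 0.80 ± 0.29 without E2 (adjusted p = 0.389). In WT Treg against LNGFR cells the value was -0.87 ± 0.38 (adjusted p = 0.317).

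Pmvk, the phosphomevalonate kinase, had 42.5, 28.2, 38.5, 25.3 and 41.3 CPM in FOXP3 codes, 9.21, 20.5 and 25.7 CPM in WT Treg codes, and 38.0, 19.0 and 17.9 CPM in LNGFR codes. G1 lay among the FOXP3 codes, and L1 was just above the lowest FOXP3 code, N2. FOXP3 against WT Treg cells gave 0.84 ± 0.35 with all codes (adjusted p = 0.244) and 0.60 ± 0.34 without E2 (adjusted p = 0.721). Hmgcs1, the HMG-CoA synthase, had 23.6 to 67.7 CPM in FOXP3 codes, 22.4 to 47.0 in WT Treg codes and 5.04 to 41.6 in LNGFR codes, with G1 the lowest. Mvk, the mevalonate kinase, Idi1, the isomerase of isopentenyl diphosphate, Fdps, which makes farnesyl diphosphate, and Ggps1, which makes geranylgeranyl diphosphate, overlapped between all groups. Mvk had 9.44 to 18.3 CPM in FOXP3 codes, 2.63 to 13.1 in WT Treg codes and 6.59 to 20.8 in LNGFR codes, Fdps had 1.32 to 16.7 and Ggps1 46.4 to 68.0 CPM over all codes, and Idi1 had 0.719 to 5.26 CPM over all codes. Part of the exons of Fdps (26.7%), Hmgcs1 (12.1%) and Idi1 (9.22%) overlaps another gene, and reads there may be split.

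Between squalene and cholesterol, Cyp51, the lanosterol demethylase, had 95.9, 70.1, 93.1, 57.1 and 34.3 CPM in FOXP3 codes, 30.3, 53.9 and 45.7 CPM in WT Treg codes, and 7.73, 33.0 and 37.4 CPM in LNGFR codes. N3 was the only FOXP3 code within the LNGFR range, and G1 was the lowest code. The value for FOXP3 against LNGFR cells was 1.41 ± 0.47 (adjusted p = 0.253), the largest fold change of the sterol genes in that comparison. Without E2 it was 1.41 ± 0.46 (adjusted p = 0.182), and without E2, G1 and N3 Cyp51 rose by 1.16 ± 0.21 (adjusted p = 0.00439).

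Fdft1, the squalene synthase, had 50.1, 44.1, 54.3, 36.8 and 21.6 CPM in FOXP3 codes, 27.6, 43.0 and 31.7 CPM in WT Treg codes, and 20.2, 20.2 and 26.4 CPM in LNGFR codes. All WT Treg codes were above all LNGFR codes, and 4 of 5 FOXP3 codes were. FOXP3 against LNGFR cells gave 0.89 ± 0.31 (adjusted p = 0.280) and WT Treg against LNGFR cells gave 0.63 ± 0.34. Exons of Fdft1 overlap Ctsb on the opposite strand over 18.3% of their length, and whether reads were counted by strand is not given in the sources used here.

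Sqle, the squalene epoxidase and a rate-limiting step, had 46.0, 41.9, 44.4, 23.3 and 9.91 CPM in FOXP3 codes, 17.1, 18.6 and 38.1 CPM in WT Treg codes, and 8.74, 17.0 and 20.9 CPM in LNGFR codes. F1, F2 and F5 were above every other code, N3 was near the bottom of all codes, and all groups overlapped. The value for FOXP3 against LNGFR cells was 1.07 ± 0.48 (adjusted p = 0.465). The 8 other sterol enzymes had fold changes above 0 in that comparison, between 0.15 for Ebp and 0.92 for Msmo1. Lss, which closes the ring to lanosterol, had 24.8 to 42.5 CPM in FOXP3 codes, 14.5 to 26.5 in WT Treg codes and 21.8 to 36.7 in LNGFR codes. The demethylation enzymes Msmo1 and Nsdhl were both lowest in G1, at 6.39 and 12.8 CPM, and reached 61.5 and 45.8 CPM in F1. Sc5d and Dhcr7, of the last steps, had 70.3 to 125 and 30.4 to 51.8 CPM in FOXP3 codes, 36.9 to 83.0 and 14.5 to 58.1 in WT Treg codes, and 42.0 to 95.1 and 16.5 to 46.8 in LNGFR codes. The reductases Tm7sf2 and Hsd17b7 were low in every code, with 3.04 to 7.66 and 6.11 to 14.6 CPM. Ebp had 88.5 to 174 CPM in FOXP3 codes, 22.4 to 159.8 in WT Treg codes and 84.5 to 231 in LNGFR codes, with the extremes in E2 and G1. In FOXP3 against LNGFR cells Ebp gave 0.15 ± 0.51 with all codes (adjusted p = 0.930). Without E2 and the G1 library rich in the Gm10800 family it gave -0.10 ± 0.40. Without E2, G1 and N3 Ebp rose by 0.88 ± 0.11 (adjusted p = 0.000378). That fit drops the highest LNGFR code for Ebp, G1, and the lowest FOXP3 code, N3. The 2 libraries of G1 differed, at 316 and 14.35 CPM of Ebp.

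**Figure D3:**
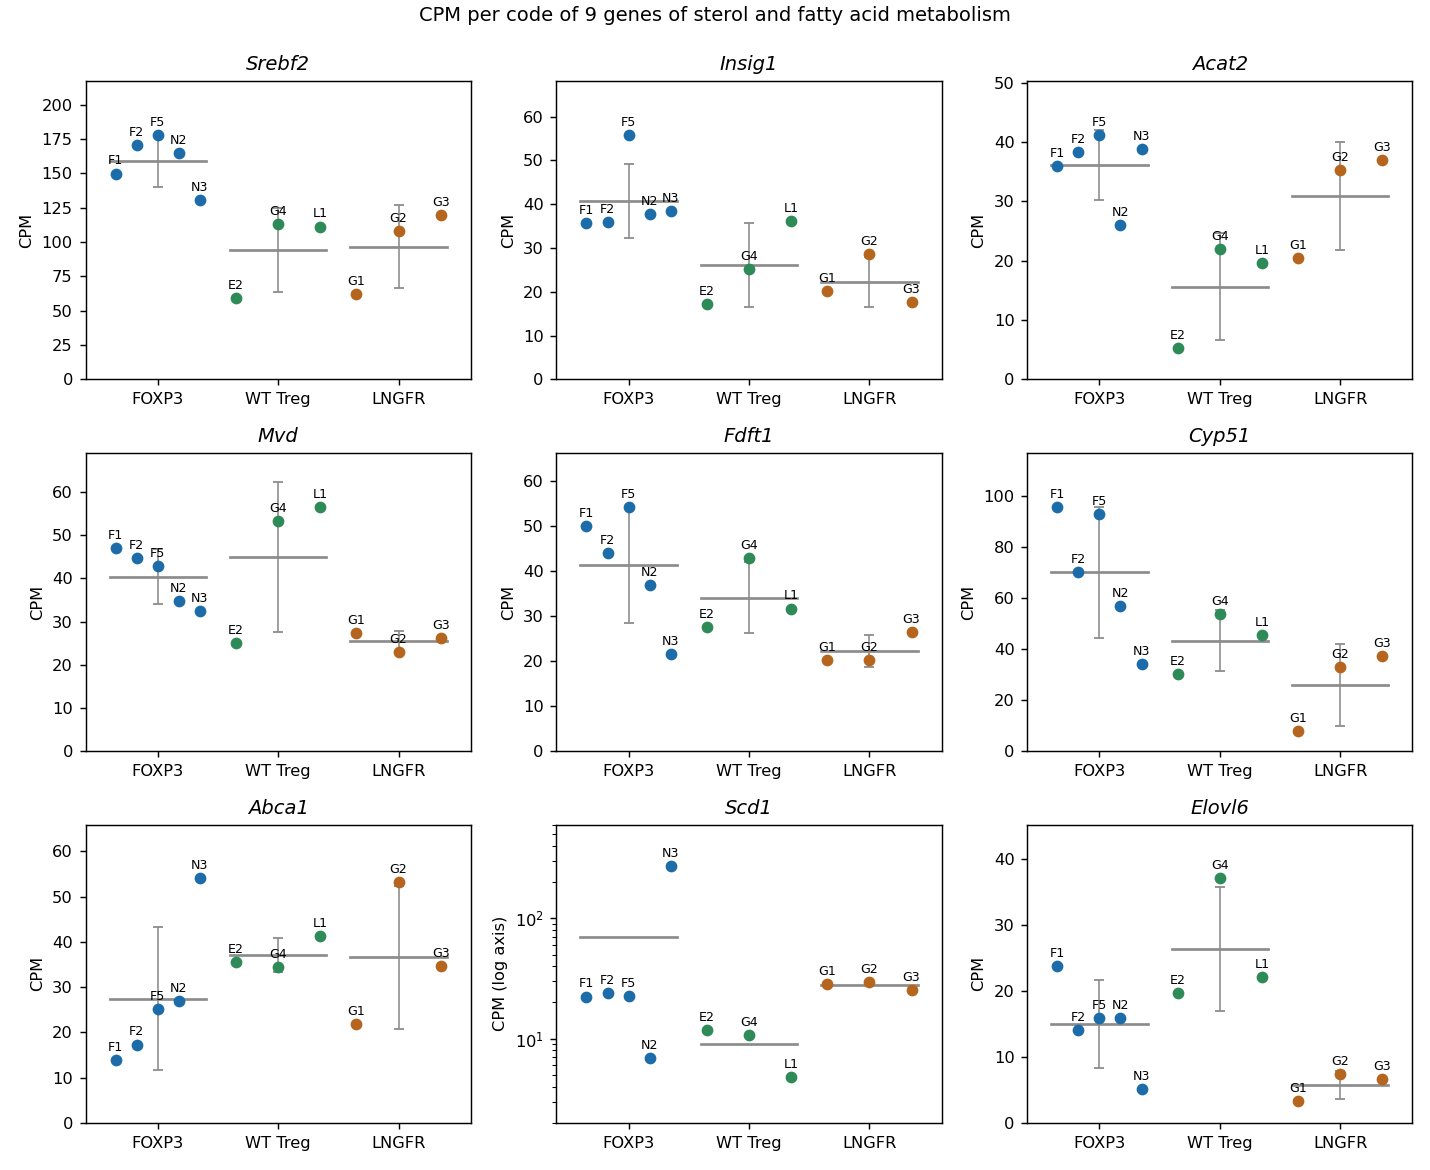
CPM of 9 members with 1 point a code, groups FOXP3, WT Treg and LNGFR from left to right, a line at each group's mean and bars of 1 SD (Scd1 has a log axis and no bars). Srebf2 and Insig1 lie higher in all FOXP3 codes than in all LNGFR codes, and Scd1 is at 271 CPM in N3 alone.

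In transport and storage, Stard4, a carrier of cholesterol between membranes and an SREBP target, had 49.8, 44.3, 54.2, 49.4 and 32.2 CPM in FOXP3 codes, 22.4, 50.8 and 48.1 CPM in WT Treg codes, and 27.6, 33.3 and 27.3 CPM in LNGFR codes. FOXP3 codes other than N3 were above all LNGFR codes, as were G4 and L1 but not E2. FOXP3 against LNGFR cells gave 0.64 ± 0.28 (adjusted p = 0.452). Soat1, which esterifies cholesterol for storage, overlapped between all groups, with 79.0 to 113 CPM in FOXP3 codes, 54.0 to 102 in WT Treg codes and 38.0 to 83.0 in LNGFR codes.

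Among the exporters, Abca1, which loads cholesterol onto apolipoproteins, had 14.0, 17.3, 25.1, 26.9 and 54.0 CPM in FOXP3 codes, 35.5, 34.4 and 41.3 CPM in WT Treg codes, and 21.9, 53.3 and 34.6 CPM in LNGFR codes. N3 was the highest FOXP3 code, and the other 4 were below every WT Treg code. The value for FOXP3 against LNGFR cells was -0.42 ± 0.40 (adjusted p = 0.741), and without E2, G1 and N3 Abca1 fell by 1.08 ± 0.26 (adjusted p = 0.0202).

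Abcg1, the exporter to lipoprotein particles, had 216, 212, 179, 187 and 310.1 CPM in FOXP3 codes, 81.6, 265 and 265 CPM in WT Treg codes, and 401, 274 and 269.8 CPM in LNGFR codes. N3 was above the other FOXP3 codes, which lay below G4, L1 and all LNGFR codes. The 2 libraries of G1 differed, at 546 and 50.2 CPM. FOXP3 against LNGFR cells gave -0.51 ± 0.37 (adjusted p = 0.678). The value of FOXP3 against WT Treg cells was 0.10 ± 0.37 with all codes, -0.26 ± 0.28 without E2, and -0.42 ± 0.11 without E2, G1 and N3 (adjusted p = 0.0320). Nr1h3, the liver X receptor typical of macrophages, was low, with 95 counts in all. It read 1.29, 0.931, 0.647, 0.726 and 1.31 CPM in FOXP3, 0, 1.94 and 0.799 CPM in WT Treg, and 5.04, 1.28 and 0.959 CPM in LNGFR cells. The groups overlapped, G1 was the highest, and the log2 fold change for FOXP3 against LNGFR cells was -1.24 ± 0.76 (adjusted p = 0.630). The 2 libraries of G1 read 1.86 and 26.3 CPM of Nr1h3. Nr1h2 had 108 to 119.9 CPM in FOXP3 codes, 82.9 to 101 in WT Treg codes and 45.7 to 133 in LNGFR codes.

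In fatty acid synthesis, Elovl6, the elongase that extends palmitate-length chains (ENSMUSG00000041220.10, chr3:129532355-129638495, plus strand, GRCm38), had 23.7, 14.1, 16.0, 15.9 and 5.12 CPM in FOXP3 codes, 19.7, 37.0 and 22.1 CPM in WT Treg codes, and 3.36, 7.36 and 6.59 CPM in LNGFR codes. All WT Treg codes were above all LNGFR codes, and N3 was the only FOXP3 code within the LNGFR range. WT Treg against LNGFR cells gave 2.18 ± 0.49 with all codes (adjusted p = 0.05004), and Elovl6 rose by 2.32 ± 0.52 without E2 (adjusted p = 0.0422). With 1 FOXP3 or LNGFR code also left out, that adjusted p ranged from 0.00679 without N3 to 0.0955 without G2. It was under 0.05 only without N3 or without F1 (0.049). With G4 or L1 also left out, which leaves 1 WT Treg code, the log2 fold change was 1.94 or 2.69. With E2 kept and N3 left out, Elovl6 also rose in WT Treg against LNGFR cells, by 2.18 ± 0.37 (adjusted p = 0.00954). FOXP3 cells lay between the other groups, at 1.34 ± 0.44 against LNGFR cells (adjusted p = 0.259) and -0.84 ± 0.41 against WT Treg cells (adjusted p = 0.332), and without N3 Elovl6 rose by 1.54 ± 0.34 against LNGFR cells (adjusted p = 0.0413). Counts behind these values were 47 to 202 in FOXP3 codes, 15 to 229 in WT Treg codes and 10 to 55 in LNGFR codes. In G1 the 2 libraries read 0 and 23.9 CPM.

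Scd1, the desaturase that makes oleate, had 22.4, 24.1, 22.8, 6.95 and 271 CPM in FOXP3 codes, 11.8, 10.7 and 4.79 CPM in WT Treg codes, and 28.2, 29.4 and 25.5 CPM in LNGFR codes. N3 was far above every other code, in both of its libraries (239.7 and 304 CPM), and all WT Treg codes lay below all LNGFR codes. FOXP3 against WT Treg cells gave 3.03 ± 1.12 with all codes (adjusted p = 0.188) and 1.31 ± 0.50 without E2, G1 and N3 (adjusted p = 0.165). N3 is also the code with the highest sums of B cell and dendritic cell genes, and their part in the Scd1 level was not tested.

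Fads1, a desaturase of long polyunsaturated chains, had 23.5, 30.2, 30.4, 33.1 and 11.4 CPM in FOXP3 codes, 11.8, 22.8 and 20.0 CPM in WT Treg codes, and 13.4, 21.0 and 13.7 CPM in LNGFR codes. FOXP3 codes other than N3 were above all codes of the other groups. The value for FOXP3 against LNGFR cells was 0.68 ± 0.35 (adjusted p = 0.551). Acly, Acaca, Fasn and Scd2, which make malonyl-CoA and palmitate and desaturate it, overlapped between FOXP3 and LNGFR codes. Acly had 175 to 298 CPM in FOXP3 codes, 94.8 to 295 in WT Treg codes and 36.0 to 227 in LNGFR codes, Fasn had 56.2 to 106 and Scd2 10.5 to 53.4 CPM over all codes. Acaca was the only tested gene of this role with a fold change under 0 there, at -0.55 ± 0.39. Acaca read 44.8 CPM in E2 and 10.6 to 25.3 in the other codes.

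Cd36, the scavenger receptor that takes up fatty acids and oxidised lipoproteins, was listed with 3, 1, 2, 1 and 0 counts in FOXP3 codes, 10, 3 and 2 in WT Treg codes, and 5, 0 and 5 in LNGFR codes. That is 0 to 0.352 CPM in FOXP3 codes, 0.266 to 13.2 CPM in WT Treg codes and 0 to 1.68 CPM in LNGFR codes. E2 held the highest value, and it also held the highest sums of 16 myeloid genes (128 CPM, against 8.75 to 78.0 in the other codes). The same was true of 8 stromal genes (108 CPM, against 3.56 to 27.9) and 7 adipocyte genes (17.1 CPM, against 0.162 to 11.8). The 9 endothelial genes summed to 134 CPM in E2, below N3 at 157 CPM, which had 0 Cd36 counts. Their part in the Cd36 value was not tested. No comparison is given for Cd36, which held few counts and did not pass the filter with all codes or without E2. The fit with no filter but 1 count did test Cd36, and that value is not given here. Intervals on such counts would cover counting error only, since amplified reads without molecular identifiers are not independent molecules.

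The sum of the synthesis enzymes in each code was set beside that of cell-cycle genes. The 19 enzymes of the mevalonate and sterol roles summed to 943, 881, 971, 757 and 559 CPM in FOXP3 codes, 341, 745 and 754 CPM in WT Treg codes, and 555, 550.1 and 635 CPM in LNGFR codes. The sum of 25 cell-cycle genes was 3225, 3096, 4256, 4412 and 945 CPM in FOXP3 codes, 682, 1782 and 2115 CPM in WT Treg codes, and 782, 992 and 1128 CPM in LNGFR codes. F1, F2, F5 and N2 were the highest codes for both sums, though N2 was close to L1 in the enzymes. N3 lay near the LNGFR codes and E2 was the lowest code in both. In FOXP3 against LNGFR cells all 25 cell-cycle genes lay above 0, with a median of 1.76. With all codes 1 of the 25 rose, where 26 of 15462 genes did. Without E2, 5 rose, where 94 of 16065 genes did. Without E2, G1 and N3, 25 rose (median 2.12), where 6.61% of all genes did. In the last fit 14 of the 25 rose in WT Treg against LNGFR cells, where 4.19% of all genes did. In FOXP3 against WT Treg cells 16 rose, where 3.85% did. The part of cell division in the level of the synthesis genes was not tested.

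**Figure D4:**
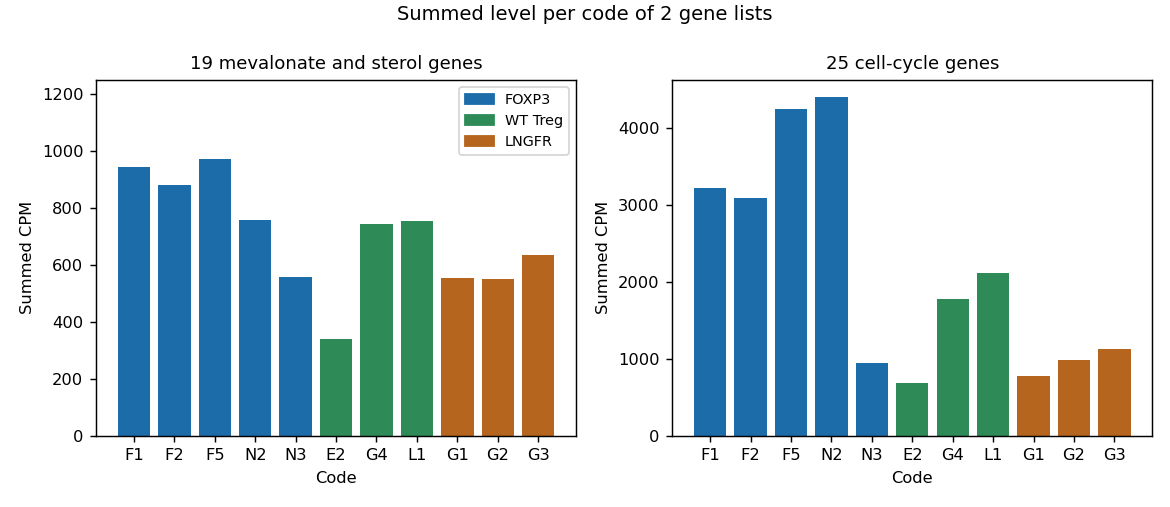
Summed CPM of the 19 synthesis enzymes (left) and the 25 cell-cycle genes (right) by code, with FOXP3, WT Treg and LNGFR codes from left to right. FOXP3 codes other than N3 have 757 to 971 CPM of synthesis enzymes and 3096 to 4412 CPM of cell-cycle genes, and N3 has 559 and 945.

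Genes around the pathway gave few calls with all codes or without E2. Of 14 genes for SREBP proteases, coat proteins and ubiquitin ligases, of 13 that use isoprenoids, of 18 tested for sterol traffic and of 18 tested for fatty acid oxidation, 0 passed in any comparison with all codes or without E2. In FOXP3 against LNGFR cells their medians were 0.18, 0.14, 0.01 and 0.14 with all codes, against -0.02 over all genes. Without E2, G1 and N3 these medians were -0.11, -0.09, 0.05 and 0.13, against -0.01 over all genes. Of 24 tested genes of fatty acid activation, storage and uptake, 3 rose and 4 fell in that fit and comparison. Over all genes, 6.61% rose and 4.04% fell there. With all codes and without E2, Dgat2 of these 24, the last enzyme of triglyceride synthesis, rose in WT Treg against LNGFR cells. Dgat2 had 6.69, 12.8, 6.47, 4.05 and 5.77 CPM in FOXP3 codes, 30.3, 37.7 and 17.6 CPM in WT Treg codes, and 1.34, 3.68 and 2.52 CPM in LNGFR codes, with no overlap between any 2 groups. The log2 fold change of WT Treg against LNGFR cells was 3.44 ± 0.51 (adjusted p = 0.00485) and without E2 3.40 ± 0.54 (adjusted p = 0.00614).

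Plin2, a coat protein of lipid droplets, had 28.1, 20.2, 20.5, 22.4 and 15.8 CPM in FOXP3 codes, 2.63, 20.1 and 14.8 CPM in WT Treg codes, and 41.4, 38.4 and 98.8 CPM in LNGFR codes. LNGFR codes were all above the others, and without E2 Plin2 fell by 1.47 ± 0.31 in FOXP3 against LNGFR cells (adjusted p = 0.0386, against 0.144 with all codes). Pparg, a nuclear receptor for fatty acids, had 2.58, 2.05, 4.64, 2.08 and 0.218 CPM in FOXP3 codes, 6.58, 0 and 0.133 CPM in WT Treg codes, and 21.9, 22.7 and 47.1 CPM in LNGFR codes. Without E2 it fell by 3.71 ± 0.56 in FOXP3 against LNGFR cells (adjusted p = 0.00739, against 0.0732 with all codes). It also fell in WT Treg against LNGFR cells without E2 (adjusted p = 0.00411, against 0.0728 with all codes), where G4 and L1 held 1 count together against 600 in the LNGFR codes, a level 0.214% of theirs (95% exact interval 0.00540% to 1.2%, which covers counting error only and not the spread between codes).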

How the data were processed

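RNA was measured in 22 libraries of 11 codes (5 FOXP3, 3 WT Treg, 3 LNGFR), each made from 1000 sorted cells with oligo-dT priming, Nextera XT tagmentation, 18 PCR cycles and paired 38-base reads, per the labels' protocols. The authors deposited raw gene counts, unnormalized, made with STAR 2.7.3a and featureCounts of Subread 2.0.0 on mm10 (GRCm38), per the submitters' processing notes. For the annotation and the strand setting, the sources used here give nothing. Replicates were not pooled by the authors, and every count column had a sample.

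The 2 libraries of a code were summed. No pair agreed within sampling noise. Genes were filtered with filterByExpr, scaled with TMM factors and tested with edgeR 4.0.16 (R 4.3.3, quasi-likelihood, robust) over all 3 groups, and p-values were adjusted over all 15462 tested genes by the Benjamini-Hochberg method with a threshold of 0.05. SE is the log2 fold change divided by the square root of F. CPM values divide each count by the library size times its TMM factor, times 1000000. Depth was 1154626 to 10376164 counts a code. Alternatives were DESeq2 1.42.0, limma 3.58.1 with quality weights, other scaling and filters, and codes or weak libraries left out.

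Every member called with all codes or without E2, Srebf1, Srebf2, Insig1, Abca1, Cd36 and the 3 members of each role with the smallest unadjusted p have values in every code. Members and lists were chosen with earlier results of these data known. Exon lengths and overlaps came from the GRCm38 annotation (GENCODE) and promoters from RefSeq.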

Additional observations from a re-analysis of the deposited data

Results flagged for a closer look

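Among the 18 members tested for a code that stands apart within the 5 FOXP3 codes, 3 had one. Chance gives about 1 in 20. Scd1 was at 271 CPM in N3, with a gap to the nearest code of 0.935 of the whole range. Abcg1 was at 310.1 CPM in N3, with a gap of 0.715, just above the limit of 0.71. Insig1 was at 55.9 CPM in F5, with a gap of 0.859. The groups of 3 codes were not examined for this. For Scd1 and Abcg1 the code is the one with the highest sums of B cell and dendritic cell genes (9736 and 10697 CPM), and their part in these values was not tested.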

How the results depend on the processing

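With all codes 0 members passed in any comparison. In FOXP3 against LNGFR cells, 10 were higher and 2 lower without E2, G1 and N3, 0 without E2 and G1, 6 were higher with limma's quality weights, and 0 to 1 were higher with 1 code left out. In WT Treg against LNGFR cells, 2 were higher without E2, 4 without E2, G1 and N3, 1 without E2 and G1 (an alternative chosen after seeing the data, as was leaving out 1 more code beside E2), 2 with DESeq2, 1 with RLE factors, 1 with no filter but 1 count, 2 with limma, and 0 to 2 with 1 code left out, and 1 was lower with no filter. In FOXP3 against WT Treg cells, 2 were higher and 1 lower without E2, G1 and N3, 1 was higher with DESeq2, 2 with limma, and 2 higher and 1 lower with no filter. Over all genes, RLE factors called 108 of 15462 higher in WT Treg against LNGFR cells, and the fit without E2 and G1 called 267 of 15054. With no filter, 716 of 46911 were higher and 284 lower there, and 404 higher and 3211 lower in FOXP3 against WT Treg cells. With 1 code left out, 1 to 161 genes were higher in FOXP3 against LNGFR cells and 10 to 147 in WT Treg against LNGFR cells. Shares for the other settings are given above. The cause of the differences between settings was not tested. Of 51 fold changes of named members, 36 kept their sign in every setting. Abcg1 in FOXP3 against WT Treg cells was reversed, at -0.42 without E2, G1 and N3. Without the filter, the median of all genes shifted to -0.22, 0.18 and -0.42 in FOXP3 against LNGFR, WT Treg against LNGFR and FOXP3 against WT Treg cells. No paired analysis was possible because the meaning of the letters and numbers in the codes is not stated, and no whole code occurs in more than 1 group. Fits without 1 code of a 3-code group assume that the other 2 vary like the other groups. Depth limits Cd36, Fads2, Nr1h3 and the values of E2 most.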
